A study of Mus musculus with 6 samples.

Results

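The visual cycle and pigment epithelium genes were examined in peak lists from chromatin immunoprecipitation sequencing (ChIP-seq) of mouse retina. The antibody, raised in rabbit, was against BMAL1, a transcription factor of the circadian clock. The set holds 10 of the 21883 protein-coding genes of the gene table used, and was fixed by name. It comprises 5 retinoid cycle genes (Rpe65, Rdh5, Lrat, Rlbp1 and Rbp3), the channel gene Best1, and 4 pigment genes (Tyr, Tyrp1, Mitf and Pmel). Every peak of the 6 deposited lists whose summit lay inside one of these genes or within 10 kb of it was taken. That gave 93 peaks, 43 in the library Bmal1 CKO 2 and 50 in Control 1, and 0 in the other 4 libraries. The study set 3 conditional Bmal1 knockout mice (libraries Bmal1 CKO 1 to 3) against 3 wild-type mice (Control 1 to 3). All 6 were labelled C57BL/6, without external treatment, and the labels mention weaning at postnatal day 20. The labels give neither the Cre driver nor the cells of the deletion, nor the age or time of day at collection. The labelled tissue is retina, and whether pigment epithelium was attached is not stated. Peak lists measure no expression, so they could not check the tissue by its markers.

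In the retinoid or visual cycle, the chromophore that light converts in photoreceptors is returned to its light-sensitive form. Much of this takes place in the retinal pigment epithelium, a layer of melanin-bearing cells behind the photoreceptors, and a part in Müller glia. Photoreceptors and the epithelium exchange retinoids across the space between them. Melanin is made in organelles called melanosomes by tyrosinase and related enzymes, under the transcription factor MITF. MITF belongs to the basic helix-loop-helix class, as BMAL1 does, and factors of this class bind E-boxes, short DNA motifs of the form CANNTG.

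The 6 lists differed in length and depth, and the 2 long ones came from different genotypes. They held 1444, 138254 and 519 peaks in Bmal1 CKO 1 to 3 and 179475, 410 and 372 in Control 1 to 3. The fragments expected per base across the genome, recovered from the deposited values, were 2.78, 5.83 and 0.560 in Bmal1 CKO 1 to 3 and 3.46, 0.609 and 0.852 in Control 1 to 3. Each peak carries a fold enrichment, the authors' ratio of fragments stacked at the summit to their local expectation in that library, with 1 added to both. A percentile is the rank of a peak's fold within its own list, ties averaged, with 100 as the highest. Folds of different libraries rest on different depths, so they are given side by side and no change is read from them. The targeted gene (listed as Arntl) cannot be checked for its loss from peak positions.

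The promoters that the results turn on are printed first. The promoter table held 11 annotated starts of 9 of the 10 genes and none of Pmel. Each sequence is RefSeq's, from GRCm38.p6, which shares its chromosome coordinates with mm10. It runs 5′ to 3′ on the gene's own strand and covers 250 bp before to 50 bp after the start. Capitals mark matches to 4 motifs searched on both strands, which are the E-box CACGTG, the related CACGTT, the M-box core CATGTG known from MITF targets, and GGATTA, the core bound by OTX2 and CRX. No 2 matches overlapped. The starts of Lrat and the first and second starts of Mitf are shown because both long lists had a summit within 1 kb of them.
Lrat, chr3:82903925-82904224, minus strand: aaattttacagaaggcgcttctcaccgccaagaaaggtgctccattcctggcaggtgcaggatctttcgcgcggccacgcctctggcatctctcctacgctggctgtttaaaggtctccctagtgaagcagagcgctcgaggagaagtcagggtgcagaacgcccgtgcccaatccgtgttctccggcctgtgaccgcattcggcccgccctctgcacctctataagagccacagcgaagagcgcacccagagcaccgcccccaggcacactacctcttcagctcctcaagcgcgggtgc
Mitf start 1, chr6:97806808-97807107, plus strand: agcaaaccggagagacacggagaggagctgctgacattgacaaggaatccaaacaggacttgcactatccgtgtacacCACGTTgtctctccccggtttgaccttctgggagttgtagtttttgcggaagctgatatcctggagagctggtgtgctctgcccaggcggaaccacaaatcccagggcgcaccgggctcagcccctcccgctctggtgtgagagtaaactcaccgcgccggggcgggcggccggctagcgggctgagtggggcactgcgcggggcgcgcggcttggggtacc
Mitf start 2, chr6:97929567-97929866, plus strand: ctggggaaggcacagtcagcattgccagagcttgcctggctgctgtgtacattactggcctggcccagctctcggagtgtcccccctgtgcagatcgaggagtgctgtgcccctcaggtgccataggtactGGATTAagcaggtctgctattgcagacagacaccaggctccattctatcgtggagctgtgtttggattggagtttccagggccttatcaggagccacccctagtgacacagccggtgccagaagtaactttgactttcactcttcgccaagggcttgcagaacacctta
The third and most downstream Mitf start and the starts of Rpe65, Tyr and Tyrp1 are shown as 4 of the 6 starts at which neither list had a summit within 1 kb, the others being those of Rdh5 and Best1.
Mitf start 3, chr6:97991533-97991832, plus strand: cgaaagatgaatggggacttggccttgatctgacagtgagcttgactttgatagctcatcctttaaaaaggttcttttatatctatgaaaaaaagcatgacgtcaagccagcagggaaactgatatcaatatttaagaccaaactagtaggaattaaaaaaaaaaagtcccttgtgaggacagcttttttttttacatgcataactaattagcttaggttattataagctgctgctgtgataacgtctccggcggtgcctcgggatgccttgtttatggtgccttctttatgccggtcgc
Rpe65, chr3:159598931-159599230, plus strand: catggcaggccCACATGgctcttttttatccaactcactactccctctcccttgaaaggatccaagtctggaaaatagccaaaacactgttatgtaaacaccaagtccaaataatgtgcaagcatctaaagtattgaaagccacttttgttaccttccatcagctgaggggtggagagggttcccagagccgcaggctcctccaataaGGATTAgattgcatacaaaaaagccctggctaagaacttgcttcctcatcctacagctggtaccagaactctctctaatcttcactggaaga
Tyr, chr7:87493463-87493762, minus strand: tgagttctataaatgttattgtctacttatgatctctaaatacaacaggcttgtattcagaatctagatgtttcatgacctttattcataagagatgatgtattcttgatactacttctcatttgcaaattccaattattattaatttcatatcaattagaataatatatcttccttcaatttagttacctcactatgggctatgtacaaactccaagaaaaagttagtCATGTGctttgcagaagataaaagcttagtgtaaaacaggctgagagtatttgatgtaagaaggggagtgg
Tyrp1, chr4:80833963-80834262, plus strand: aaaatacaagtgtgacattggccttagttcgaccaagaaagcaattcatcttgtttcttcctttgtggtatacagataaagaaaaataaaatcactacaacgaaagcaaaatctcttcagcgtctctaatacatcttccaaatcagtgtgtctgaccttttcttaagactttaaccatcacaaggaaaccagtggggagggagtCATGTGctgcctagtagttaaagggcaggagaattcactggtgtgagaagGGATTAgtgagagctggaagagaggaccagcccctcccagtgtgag
No member promoter held CACGTG, which was present in 7.84% of 21262 promoters of protein-coding genes. The CACGTT of the first Mitf start, a motif in 4.68% of promoters, began 172 bp before the start. Tyr and Tyrp1 each held the M-box core CATGTG, a motif in 11.5% of promoters, and it began 21 bp and 46 bp before their starts. In Rpe65 the same core, read on the other strand, began 239 bp before the start, and GGATTA (6.42% of promoters) began 42 bp before it. The M-box core was not limited to pigment genes: it also began 213 bp and 88 bp before the start of Rbp3 and, on the other strand, 124 bp before that of Rlbp1. GGATTA also began 119 bp before the second Mitf start, 69 bp before the start of Rbp3, 227 bp before that of Best1 (on the other strand) and 4 bp after that of Tyrp1. A match to letters is a description, not a site.

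Of the 10 genes, 9 had at least 1 peak, inside or up to 10 kb away, in Bmal1 CKO 2 and the same number in Control 1, and the gene without one was Tyr in both. Over all protein-coding genes this share was 87.8% and 92.6% in these libraries, so 9 of 10 is near the background. A summit within 1 kb of either annotated gene end was found at 4 genes in Bmal1 CKO 2 (Lrat, Rlbp1, Mitf and Pmel) and at 6 in Control 1 (the same 4, Rdh5 and Rbp3). Over all protein-coding genes 58.9% had such an end peak in Bmal1 CKO 2 and 69.5% in Control 1. With annotated starts only, 3 members had a peak in Bmal1 CKO 2 (Lrat, Rlbp1 and Mitf) and 3 in Control 1 (Lrat, Rbp3 and Mitf), where 59.7% and 69.2% of 17491 genes with a start had one. Member peaks had a median fold of 2.95 in Bmal1 CKO 2 and 3.48 in Control 1, against 2.96 and 3.54 over the whole lists.

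**Figure D1:**
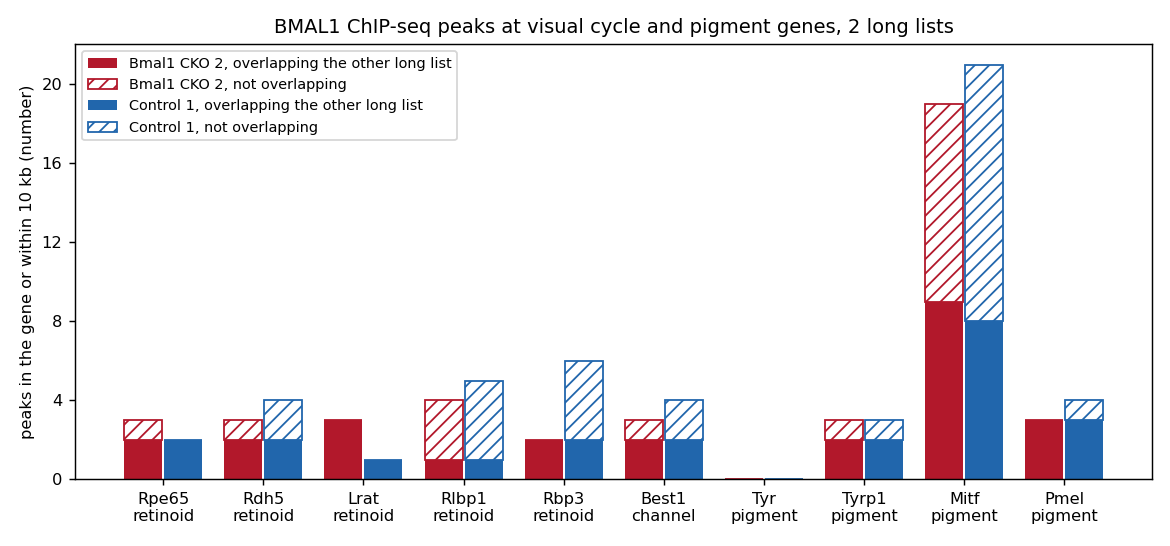
Number of peaks (vertical axis) with a summit in each of the 10 genes or within 10 kb, in Bmal1 CKO 2 (red, left bar) and Control 1 (blue, right bar). Solid bars count peaks that overlapped a peak of the other long list by at least 1 base and hatched bars those that did not. Mitf had 19 and 21 peaks and Tyr had 0 in both.

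Each genotype had 1 long list, so genotype and library cannot be told apart at these genes. With the other 4 libraries at 0, the exact two-sided permutation test could not go below p = 0.40 on the values given here, and it says nothing for or against a difference. Member peaks per 10000 listed peaks were 0, 3.11 and 0 in Bmal1 CKO 1 to 3 and 2.79, 0 and 0 in Control 1 to 3. The mean was 1.04 ± 1.80 in CKO libraries and 0.929 ± 1.61 in controls (SD, n = 3 each), a difference of 0.108 that was smaller than those SDs (exact two-sided permutation p = 1.0). Its direction turned without Bmal1 CKO 2 (−0.929) and without Control 2 or Control 3 (−0.356). The number of members with an end peak differed by −0.667 (1.33 ± 2.31 in CKO libraries and 2.00 ± 3.46 in controls, n = 3 each, exact permutation p = 1.0), and by 1.33 without Control 1. Members with any peak averaged 3.00 ± 5.20 in both genotypes (n = 3 each, exact permutation p = 1.0), with −3.00 without Bmal1 CKO 2 and 3.00 without Control 1 as differences.

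The short lists allowed the following shares. A list of 1444 peaks with 0 at the members allows a share of up to 0.208% of peaks (3 counts, counting error only), and the others allow 0.578% to 0.806%. Of all protein-coding genes, 1.98% in Bmal1 CKO 1, 1.07% in Bmal1 CKO 3, 0.777% in Control 2 and 0.754% in Control 3 had a summit inside or within 10 kb. An end peak was found at 0.315%, 0.105%, 0.0594% and 0.0594% in the same order, and a start peak at 0.217%, 0.0972%, 0.04% and 0.0457% of genes with a start. Each member peak was scaled down to the depth of Bmal1 CKO 3, Control 2 and Control 3. There, 0 of the 43 peaks of Bmal1 CKO 2 reached the lowest −log10 p-value listed there (5.05 to 6.76). Of the 50 peaks of Control 1, only the one inside Best1 did, in Bmal1 CKO 3 (5.51 against 5.05) and in Control 3 (7.61 against 6.20). Scaled to Bmal1 CKO 1, whose lowest listed value was 5.45, 5 peaks of Bmal1 CKO 2 and 28 of Control 1 reached it, and that list held none of them. Only member peaks were scaled, so no share of the whole lists stands beside these counts. Nothing particular to the members is read from them. By this scaling, most member peaks fell below the lowest listed value of Bmal1 CKO 3, Control 2 and Control 3. The scaling keeps the enrichment of the source library, and whether depth accounts for the 0 counts was not tested.

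Retinoid cycle genes are taken in the order of the cycle. Lrat encodes the acyltransferase that turns retinol into stored retinyl esters (chromosome 3, 82892582 to 82903974, minus strand). All of its peaks lay at the start. Bmal1 CKO 2 listed 3 of them, at 400 bp after the start (fold 3.14, 24 fragments stacked at the summit over a background of 6.96), 175 bp before it (fold 2.68, 21 over 7.22) and 726 bp before it (fold 2.81, 22 over 7.18). Control 1 listed 1 peak of 1287 bp with its summit 457 bp before the start (fold 3.96, 24 over 5.32), and that peak overlapped all 3. Lrat thus had more peaks in one list and the same place in both. The annotated lncRNA gene Rbm46os spans the whole of Lrat, so the place is not that of Lrat alone.

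Rpe65 encodes the isomerase that makes the cis form of the retinoid from these esters (chromosome 3, 159599075 to 159625307, plus strand). No list had a summit inside the gene. The nearest summit lay 6365 bp before the annotated start in Bmal1 CKO 2 (fold 3.07, 20 fragments over 5.83) and 6352 bp before it in Control 1 (fold 3.59, 15 over 3.46), and these 2 peaks overlapped. A second overlapping pair lay beyond the other gene end, at 5252 bp in Bmal1 CKO 2 (fold 2.63) and 5262 bp in Control 1 (fold 3.14). Bmal1 CKO 2 had 1 further peak, 8660 bp before the start (fold 3.07). No other annotated gene lay in this window.

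Rdh5 encodes a retinol dehydrogenase of the pigment epithelium that oxidises cis retinol to the aldehyde chromophore (chromosome 10, 128913588 to 128920037, minus strand). Inside the gene, Bmal1 CKO 2 had no summit and Control 1 had 2, both narrow (200 bp), at 5058 bp (fold 2.51, 31 fragments over 11.7) and 1263 bp (fold 2.57, 29 over 10.7) after the start. The first of these, 651 bp from the lower gene end, was the end peak counted above. Both stood low in their list, at percentile 4.72 and 6.23 of its folds. Peaks shared by the lists lay in neighbouring genes. At the upper end of Bloc1s1 the fold was 3.06 in Bmal1 CKO 2 (40 fragments over 12.4) and 4.32 in Control 1 (45 over 9.64). In Cd63 it was 2.24 in Bmal1 CKO 2 and 2.95 in Control 1, and Bmal1 CKO 2 had another summit there with a fold of 2.05.

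Rlbp1 encodes CRALBP, the protein that binds cis retinoids in pigment epithelium and Müller glia (chromosome 7, 79374865 to 79392250, minus strand). Its strongest peak was shared and lay just outside the upper gene end, at 218 bp in Bmal1 CKO 2 (fold 3.49, 42 fragments over 11.3) and 249 bp in Control 1 (fold 3.82, 29 over 6.86). That place is also within 1 kb of the lower end of Fanci, a DNA repair gene, and 5441 bp and 5472 bp before the annotated Rlbp1 start. At that start Bmal1 CKO 2 had a summit 276 bp into the gene (fold 2.61, 32 over 11.7), and the nearest in Control 1 was 1913 bp before it (fold 3.27, 25 over 6.94). No peak inside Rlbp1 was shared, among 2 in Bmal1 CKO 2 and 3 in Control 1.

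Rbp3 encodes IRBP, the retinoid carrier that photoreceptors secrete (chromosome 14, 33954003 to 33964219, plus strand). It had 2 peaks in Bmal1 CKO 2 and 6 in Control 1, and both peaks of Bmal1 CKO 2 overlapped Control 1. One pair lay inside the gene, 1650 bp from its far end in Bmal1 CKO 2 (fold 2.85, 38 fragments over 12.7) and 1814 bp from it in Control 1 (fold 2.89, 29 over 9.38). The other lay between Rbp3 and Zfp488, 1995 bp beyond the far end in Bmal1 CKO 2 (fold 3.19) and 1977 bp beyond it in Control 1 (fold 3.53). Near the start only Control 1 had summits, at 994 bp (fold 2.33, 32 over 13.2, percentile 1.66 of that list) and 1811 bp (fold 2.64). The summit at 994 bp was the end peak of Rbp3 and lay just inside the 1 kb limit.

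Best1 encodes bestrophin, a chloride channel of the pigment epithelium (chromosome 19, 9985172 to 10001633, minus strand). No list had a peak within 1 kb of either of its ends. It held the peak with the highest fragment count of the set, inside the gene 5167 bp after the start in Bmal1 CKO 2 (fold 3.63, 52 fragments over 13.6) and 5181 bp after it in Control 1 (fold 5.17, 62 over 11.2). These summits lay 14 bp apart and the intervals shared 541 bp. Within their own lists they stood at percentile 85.1 and 93.8 of folds. Control 1 had 2 further peaks inside the gene (folds 2.98 and 2.29) and Bmal1 CKO 2 had none. Another shared place lay in Fth1, the ferritin heavy chain gene next to Best1, with a fold of 2.79 in Bmal1 CKO 2 and 5.04 in Control 1. Bmal1 CKO 2 also had a summit 9972 bp beyond the lower end (fold 2.95), just inside the 10 kb limit. The gene table does not give exons, so peaks inside a gene could not be assigned to introns or exons.

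**Figure D2:**
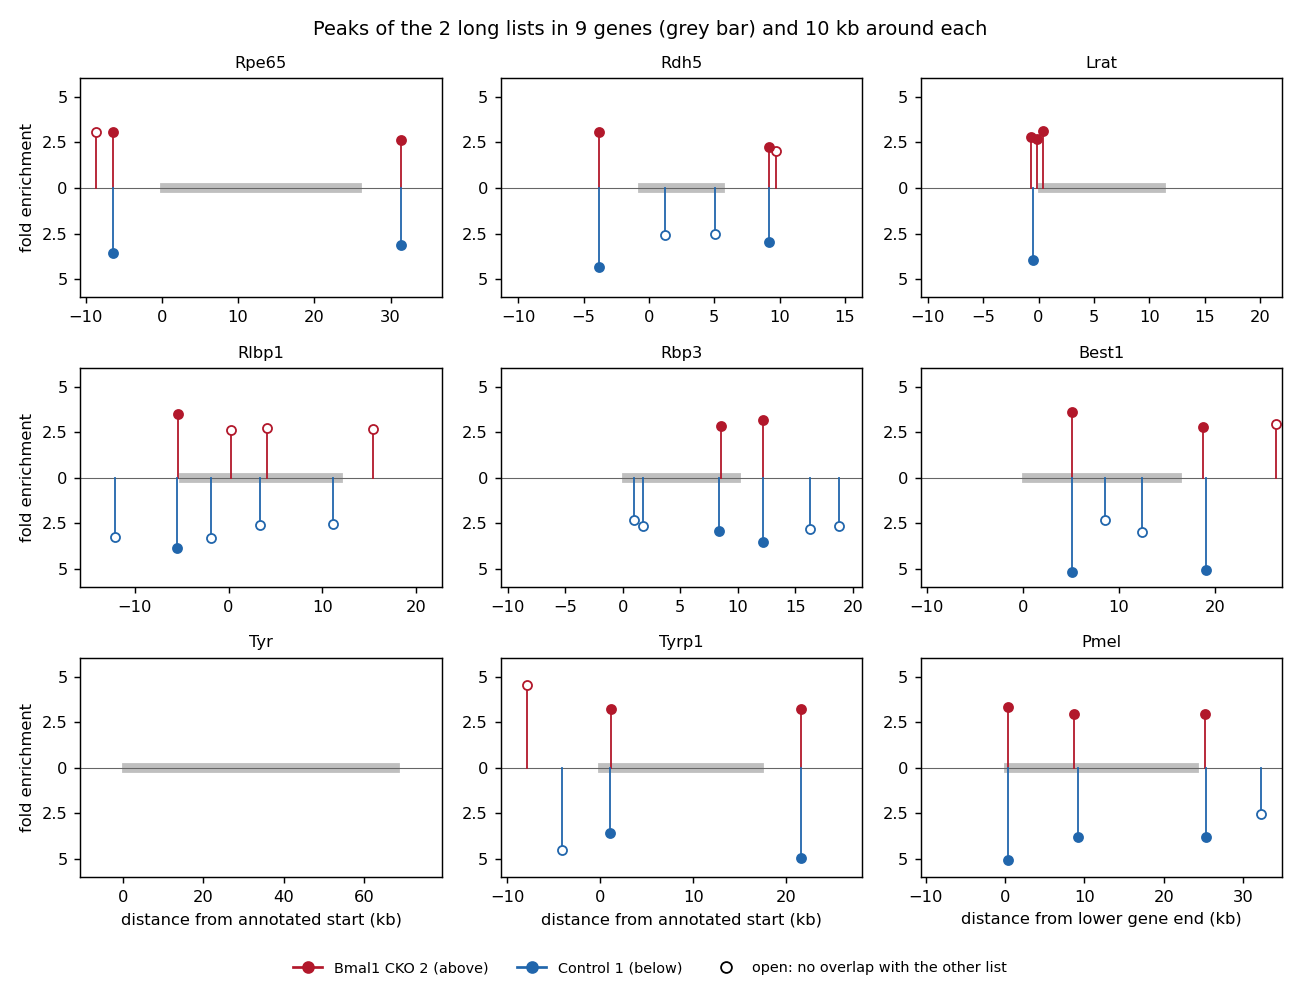
Position of every peak in 9 genes (grey bars) and 10 kb around them, in kb from the annotated start in the direction of transcription (from the lower gene end for Pmel). Stem height is the authors' fold enrichment, upward for Bmal1 CKO 2 (red) and downward for Control 1 (blue), and open symbols mark peaks without overlap in the other list. All 3 Lrat peaks of Bmal1 CKO 2 lie at the start, the peaks of Rpe65 lie outside the gene, and Tyr has none.

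Among the pigment genes Tyr, which encodes tyrosinase, the rate-limiting enzyme of melanin synthesis, had no peak in any of the 6 lists (chromosome 7, 87424771 to 87493512, minus strand). Its nearest summits lay 19.0 kb below and 61.5 kb above the gene in Bmal1 CKO 2, and 59.0 kb below and 30.2 kb above it in Control 1. The stretch free of summits was 149 kb in Bmal1 CKO 2 and 158 kb in Control 1. Over all protein-coding genes 5.43% had no summit in the gene or within 10 kb in either list. Among the 3652 genes at least as long as Tyr it was 7, or 0.192%. Tyr had been named for its function, and no test was made of its rank. Its promoter had 31.0% G and C and no CG pair, against medians of 56.3% and 13 over all promoters.

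Tyrp1 encodes an enzyme related to tyrosinase that stabilises it (chromosome 4, 80834123 to 80851736, plus strand), and each long list had 3 peaks there. The pair closest to the start lay 1128 bp after it in Bmal1 CKO 2 (fold 3.22, 21 fragments over 5.83) and 1034 bp after it in Control 1 (fold 3.59, 15 over 3.46). Both were just outside the 1 kb limit of either end. A second shared place lay 3985 bp beyond the far end in Bmal1 CKO 2 (fold 3.22) and 4011 bp beyond it in Control 1 (fold 4.93). Each list had 1 peak of its own upstream, 7873 bp before the start in Bmal1 CKO 2 and 4150 bp before it in Control 1. These unshared peaks had folds of 4.54 (30 fragments over 5.83, percentile 97.3) and 4.48 (19 over 3.46, percentile 84.5). The first was the highest fold among member peaks in Bmal1 CKO 2, and it had no overlapping peak in Control 1.

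Mitf, the regulator of pigment cell genes, has several alternative first exons, the most downstream of which is used in melanocytes (chromosome 6, 97807002 to 98021360, plus strand). It is 214 kb long and held 19 peaks in Bmal1 CKO 2 and 21 in Control 1, or 19 of 43 and 21 of 50 of all member peaks. Of these, 9 in Bmal1 CKO 2 and 8 in Control 1 overlapped the other list, and they made 9 overlapping pairs. At the first start Bmal1 CKO 2 had summits 153 bp before (fold 2.98, 28 fragments over 8.74) and 319 bp after it (fold 3.42, 32 over 8.66). Control 1 had 1 peak of 908 bp there, with its summit 490 bp after the start (fold 4.89, 30 over 5.34). The second start had a summit 93 bp before it in Bmal1 CKO 2 (fold 3.71, 25 over 6.00, the highest fold of Mitf in that list) and 149 bp before it in Control 1 (fold 3.81, 16 over 3.46). These summits lay on either side of the GGATTA shown in capitals above. At the third start the nearest summit was 6764 bp after it in Bmal1 CKO 2 (fold 2.70) and 1578 bp before it in Control 1 (fold 3.63).

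Across the whole of Mitf, with the peaks at the starts included, the median gap was 8.46 kb in Bmal1 CKO 2 and 8.67 kb in Control 1. The largest gap ran for 28.9 kb in Bmal1 CKO 2 and 33.8 kb in Control 1, both upstream of the second start. Near the far gene end, 3226 bp from it in Bmal1 CKO 2 (fold 2.63, 17 fragments over 5.83) and 3387 bp from it in Control 1 (fold 4.96, 23 over 3.84), the lists shared another place, which held the highest fold of Mitf in Control 1. Away from the first and second starts, 6 pairs inside the gene overlapped, this one included, with folds of 2.35 to 3.39 in Bmal1 CKO 2 and 3.00 to 4.96 in Control 1. The pair with the fold of 3.39 overlapped by only 14 bp, and its summits lay 348 bp apart.

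**Figure D3:**
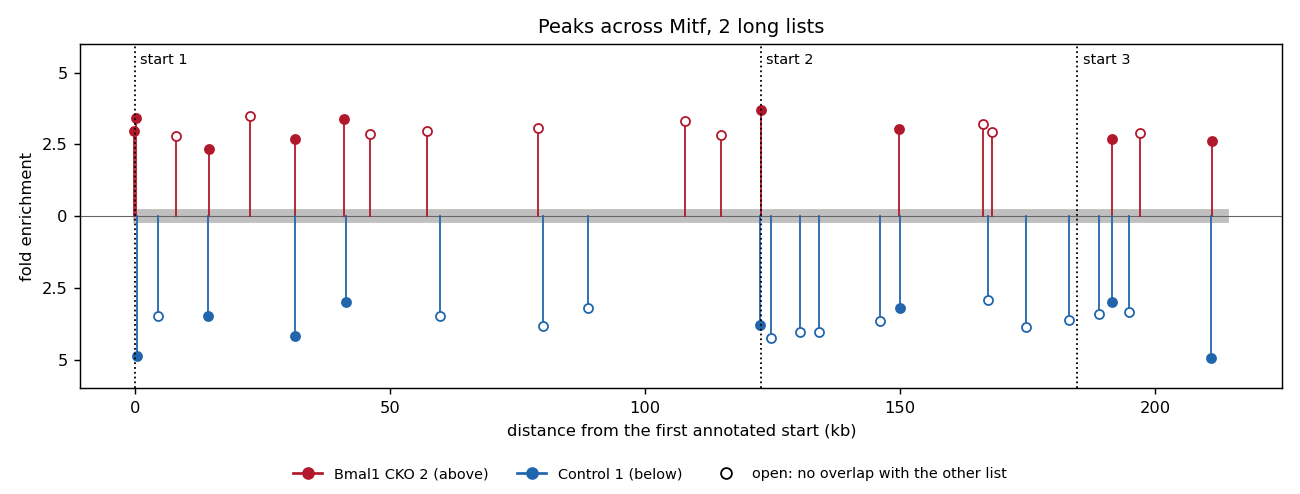
Peaks across Mitf (grey bar), in kb from the first annotated start, with dotted lines at the 3 starts. Stems show the authors' fold enrichment, upward for Bmal1 CKO 2 (19 peaks, red) and downward for Control 1 (21 peaks, blue), with open symbols for peaks without overlap in the other list. Filled pairs stand at the first and second starts and none at the third.

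Pmel encodes the protein of the fibrils on which melanin is laid down in melanosomes. The table's span for it (chromosome 10, 128695888 to 128720238) overlaps Rab5b and Dgka and encloses Cdk2, and it gives no strand or start. All 3 peaks of Bmal1 CKO 2 overlapped Control 1, which had 4. The strongest lay at the end shared with Rab5b, 354 bp inside the Pmel span in Bmal1 CKO 2 (fold 3.33, 38 fragments over 10.7) and 321 bp inside it in Control 1 (fold 5.03, 43 over 7.74). The next lay at an end of Cdk2 (folds 2.93 and 3.82 in Bmal1 CKO 2 and Control 1), and the others in Dgka. The shared pair in Dgka had a fold of 2.92 at 889 bp beyond the upper end in Bmal1 CKO 2 and 3.79 at 1012 bp beyond it in Control 1, on either side of the 1 kb limit. Every Pmel peak thus lay in or at the end of another protein-coding gene, and none can be assigned to Pmel alone.

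Retinoid cycle genes were set against pigment genes by peaks per 100 kb of gene and 10 kb around it. Retinoid cycle genes had 15 peaks in Bmal1 CKO 2 and 18 in Control 1 over 172 kb, or 8.74 and 10.5 per 100 kb. Pigment genes had 25 and 28 over 405 kb, or 6.17 and 6.91. The retinoid cycle genes were therefore higher by 2.57 in Bmal1 CKO 2 and by 3.57 in Control 1. In each of the other libraries neither group had a peak, so the contrast stood at 0 there for lack of peaks. With those values it averaged 0.855 ± 1.48 in CKO libraries and 1.19 ± 2.06 in controls (SD, n = 3 each). The difference was −0.336 (exact permutation p = 1.0, with the same lowest possible p of 0.40). These SDs set a single long list beside lists without a peak here, so they measure no spread between mice and the test decides nothing. The difference was 0.855 without Control 1 and 0.0920 without Bmal1 CKO 1 or Bmal1 CKO 3. Single genes ranged from 6.49 (Rpe65) to 11.3 (Rdh5) in the retinoid cycle group in Bmal1 CKO 2 and from 3.19 (Lrat) to 19.9 (Rbp3) in Control 1. In the pigment group they ranged from 0 (Tyr) to 8.11 (Mitf) in Bmal1 CKO 2 and from 0 (Tyr) to 9.02 (Pmel) in Control 1. The ranges of the 2 groups thus overlapped in both lists. The median over all protein-coding genes was 6.50 in Bmal1 CKO 2 and 9.63 in Control 1, and over the 10 members it was 8.04 and 8.99.

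The density contrast moved with neighbouring genes, with Tyr and with Mitf. In the retinoid cycle group 5 of 15 peaks in Bmal1 CKO 2 and 7 of 18 in Control 1 lay inside another protein-coding gene or within 1 kb of its end. In the pigment group these were 3 of 25 and 4 of 28. Without such peaks the densities were 5.82 in retinoid cycle genes against 5.43 in pigment genes in Bmal1 CKO 2, and 6.41 against 5.92 in Control 1. The full windows were kept as the length, so the bases of the other genes still counted. That lowers the density more where more peaks were removed. Without Mitf, the contrast was 5.22 in Bmal1 CKO 2 and 6.38 in Control 1. Without Tyr, it was 0.834 in Bmal1 CKO 2 and 1.63 in Control 1, and with gene bodies only it was −0.880 and 3.78. Among peaks with a fold of at least 3 it was 0.532 in Bmal1 CKO 2 and −1.76 in Control 1.

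**Figure D4:**
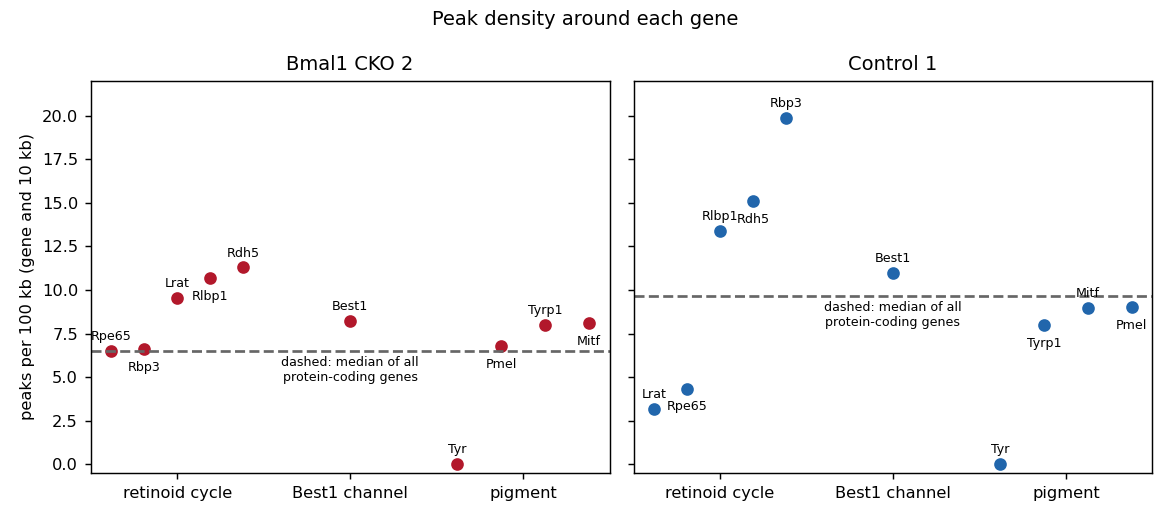
Peaks per 100 kb of gene and 10 kb around it (vertical axis) for each gene, in Bmal1 CKO 2 (left) and Control 1 (right), with the median of all protein-coding genes as a dashed line (6.50 and 9.63). Retinoid cycle genes lie between 6.49 and 11.3 in Bmal1 CKO 2 and between 3.19 and 19.9 in Control 1, and Tyr is at 0 in both.

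By place, of the retinoid cycle peaks 4 of 15 in Bmal1 CKO 2 and 8 of 18 in Control 1 were inside the gene, and of the pigment peaks 21 of 25 and 24 of 28. Most of these pigment peaks, 18 in Bmal1 CKO 2 and 21 in Control 1, belonged to Mitf, whose window makes up 234 kb of the 405 kb. The gene itself fills 214 kb of that window. Retinoid cycle genes fill less of theirs, from 6.45 kb of 26.4 kb (Rdh5) to 26.2 kb of 46.2 kb (Rpe65). More summits inside pigment genes can thus follow from gene length alone, and no preference for gene bodies is read from these counts. Median folds were 2.81 in Bmal1 CKO 2 and 2.92 in Control 1 for retinoid cycle peaks, at a median percentile of 37.4 and 18.9 of their lists. For pigment peaks they were 2.98 and 3.72, at a median percentile of 50.7 and 59.5. No test was made on these medians, since peaks of 1 library are not replicates. Local background differed between genes, and a fold falls as it rises. In Control 1 it was 8.12 to 13.2 at Rbp3 peaks (23 to 36 fragments) and 3.46 to 5.34 at Mitf peaks (12 to 30 fragments). Not all genes followed this order, with 3.46 at Rpe65 and 6.06 to 7.74 at Pmel. The lower folds of retinoid cycle peaks are therefore not read as fewer fragments.

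Recurrence between the long lists was near that of the whole lists. Of the 43 member peaks of Bmal1 CKO 2, 26 (60.5%, 95% Wilson interval 45.6% to 73.6%) overlapped Control 1 by at least 1 base. Of the 50 of Control 1, 23 (46.0%, 33.0% to 59.6%) overlapped Bmal1 CKO 2. Over the whole lists these shares were 54.1% and 40.7%, inside both intervals, which cover counting error only. With summits within 100 bp as the rule, the member shares were 32.6% in Bmal1 CKO 2 and 28.0% in Control 1, and those of the whole lists 33.6% and 25.9%. The 26 overlapping pairs had summits 10 bp to 857 bp apart, with a median of 92 bp, and they involved all 9 genes with peaks. Retinoid cycle peaks recurred in 10 of 15 (66.7%) in Bmal1 CKO 2 and 8 of 18 (44.4%) in Control 1, and pigment peaks in 14 of 25 (56.0%) and 13 of 28 (46.4%). The intervals of the 2 groups overlapped (41.7% to 84.8% against 37.1% to 73.3% in Bmal1 CKO 2), which is no test of a difference. They treat the peaks of a library as independent, while several at Lrat and at Mitf met the same peak of the other list.

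By place, all 8 peaks at gene ends in Bmal1 CKO 2 overlapped Control 1, and 4 of the 6 in Control 1 overlapped Bmal1 CKO 2, the exceptions being those of Rdh5 and Rbp3. The 8 were not separate places, since 3 at Lrat overlapped a single Control 1 peak and 2 at Mitf another. Over the whole lists 85.3% of peaks within 1 kb of a protein-coding gene end in Bmal1 CKO 2 and 64.4% in Control 1 overlapped the other list. Away from the ends but inside the gene, 11 of 23 (47.8%) in Bmal1 CKO 2 and 11 of 31 (35.5%) in Control 1 recurred. In the flanks these were 7 of 12 (58.3%) and 8 of 13 (61.5%). The whole lists had 49.5% and 35.4% inside genes and 51.7% and 39.0% within 10 kb outside them in the same order of libraries. These classes were taken over all protein-coding genes at once, whereas the place of a member peak was set against that member alone. Several member flank peaks lay inside or at the end of another gene, so the flank shares are not like for like. Recurrent member peaks were wider, with a median of 341 bp against 272 bp for the rest in Bmal1 CKO 2, and 404 bp against 227 bp in Control 1. The whole lists showed the same order, with 300 bp against 237 bp in Bmal1 CKO 2 and 327 bp against 245 bp in Control 1, and wider peaks overlap more easily.

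Base composition of the promoter was set beside the peaks. Over all promoters the share of starts with a summit within 1 kb rose with the number of CG pairs. With 0 to 4 pairs it was 18.4% in Bmal1 CKO 2 and 23.0% in Control 1, with 5 to 13 it was 50.6% and 64.6%, with 14 to 24 it was 81.8% and 92.3%, and with 25 to 67 it was 84.3% and 95.2%. Among the members, Lrat with 21 pairs and the first Mitf start with 22 had a summit in both lists. Of the 5 starts with 0 to 4 pairs (Tyr, Rpe65, Best1, Rbp3 and Tyrp1), 0 had one in Bmal1 CKO 2 and 1 (Rbp3) in Control 1. Of the 4 starts with 5 to 8 pairs, the second Mitf start had one in both lists, Rlbp1 in Bmal1 CKO 2 alone, and Rdh5 and the third Mitf start in neither. Whether base composition bears on the peaks was not tested.

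**Figure D5:**
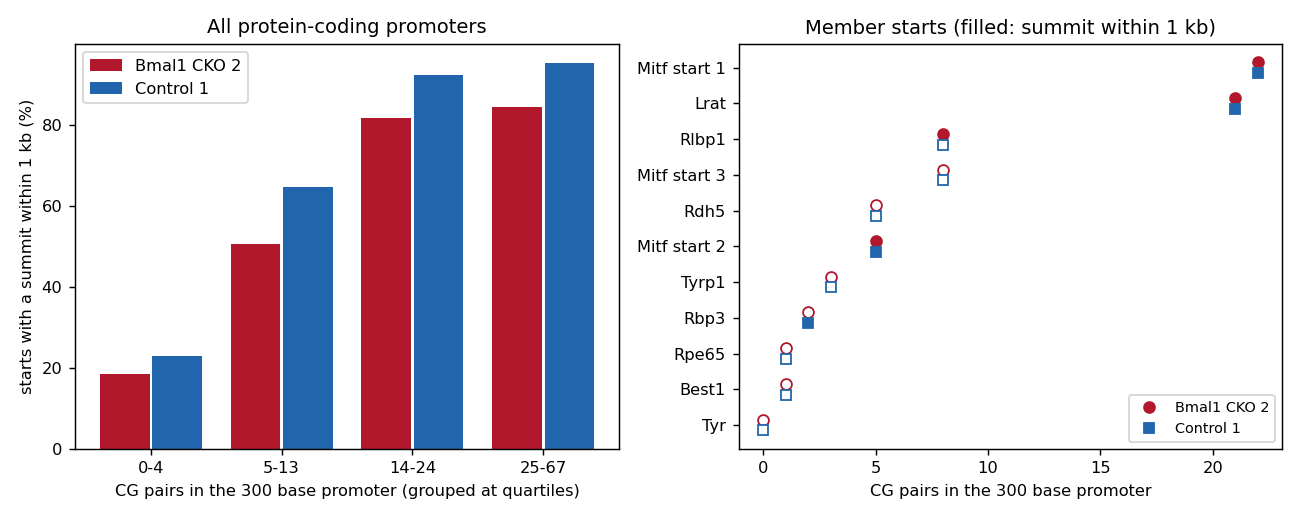
Left, percent of annotated starts of protein-coding genes with a summit within 1 kb (vertical axis) by number of CG pairs in the 300 base promoter, in Bmal1 CKO 2 (red) and Control 1 (blue). Right, the 11 member starts by CG pairs, filled where a summit lay within 1 kb; both starts with over 20 pairs are filled in both libraries.

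Other genes of these pathways were counted in the same way, from lists chosen by function. Of 14 other retinoid cycle and vitamin A genes, 8 had an end peak in Bmal1 CKO 2 (57.1%) and 10 in Control 1 (71.4%), against 58.9% and 69.5% of all protein-coding genes, and 7 had one in both. The highest of these were at Rdh14, a retinol dehydrogenase gene, with folds of 4.69 and 5.73 in Bmal1 CKO 2 and Control 1 at a place within 1 kb of Nt5c1b. Rrh, an opsin gene of the pigment epithelium, had 3.24 in Bmal1 CKO 2 and 4.23 in Control 1. Retsat, a retinol saturase gene, had 2.70 and 3.30 (within 1 kb of Elmod3 in Control 1). Rdh12, a photoreceptor retinol dehydrogenase gene, had 2.68 and 3.11, and Rbp4, the gene of the retinol carrier of blood, 2.64 and 3.76.

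Of 12 other pigment genes 8 had an end peak in both lists (66.7% in each), against 58.9% of all protein-coding genes in Bmal1 CKO 2 and 69.5% in Control 1. Rab38, which encodes a small GTPase, had folds of 4.98 in Bmal1 CKO 2 and 5.83 in Control 1. Gpr143, the ocular albinism receptor gene, had 4.10 and 5.38, and the transporter gene Slc45a2 had 3.56 and 3.60. Mlana, a melanosome protein gene, had 2.94 and 3.36, and the exchanger gene Slc24a5 had 2.86 and 3.09. Tfec, Oca2, Trpm1 and Sox10 had none at an end. Of 10 other pigment epithelium genes, 4 had an end peak in Bmal1 CKO 2 and 5 in Control 1. Mertk, the receptor for uptake of photoreceptor outer segments, had folds of 2.89 and 5.70, Timp3 had 2.54 and 3.70, Ezr had 2.26 and 2.70, and Bsg had 1.99 and 2.70. The 36 genes of these lists had 0 end peaks and 0 peaks within 10 kb in each of the other 4 libraries.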

How the data were processed

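Retinas of 3 Bmal1 CKO and 3 wild-type mice gave 1 BMAL1 ChIP-seq library and 1 deposited peak list each. The series record ties each list to its library, and the numbers in the lists' names differ from the replicate numbers. Trim Galore, Bowtie2, MACS2 and mm10 are named in the submitters' processing notes. Their versions and settings, and whether an input was sequenced, were not stated there. The lists, as deposited by the authors, hold per peak a fold (a ratio), a −log10 p-value, a −log10 q-value, a score and the summit offset, and the score was not used.

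Summits were placed against a RefSeq gene table and promoter table of GRCm38.p6. Fragments stacked at each summit and their background were solved from fold and p-value (pseudocount 1, Poisson tail). The result was whole within 0.02 for 100.0% of peaks, and 99.9% of 978 simulated pairs were recovered. Whether the p-value was counted this way is inferred from the values. Genotypes were compared by exact two-sided permutation tests over 20 assignments of the 6 libraries. The 1 kb window around both gene ends and the named genes follow the rule that all members are named, with every end peak and the highest fold per list, and up to 5 genes of each other list with an end peak in both long lists, by their lower fold. The values of 1 gene counted in the other lists are not reported here. Members, lists and tests were chosen with earlier results of these data known. Alternatives were stricter peaks, other windows, other overlaps, equal list length, left-out libraries and a replicate block. Python 3.11.15, numpy 2.4.6, pandas 2.3.3 and scipy 1.17.1 were used.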

Additional observations from a re-analysis of the deposited data

How the results depend on the processing

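All values here are differences, Bmal1 CKO minus Control, unless named as shares, and none of the tests could pass 0.05. Leaving out 1 library at a time gave −0.929 to 1.04 for member peaks per 10000, −3.00 to 3.00 for members with any peak, −2.00 to 1.33 for members with an end peak and −1.19 to 0.855 for the retinoid minus pigment density. Directions also turned for peaks with a fold of at least 3 (density contrast 0.764), for gene bodies only (−0.0232 member peaks per 10000) and for an end window of 500 bp (0.333 members). With summits within 100 bp as the rule, 32.6% (whole list 33.6%) of Bmal1 CKO 2 and 28.0% (whole list 25.9%) of Control 1 member peaks were shared. Members with any peak, equal in both genotypes, differed by −0.333 at −log10 q of at least 5 and by 0.333 with 25 kb flanks. The other alternatives kept the direction or gave no difference, among them those without Tyr, Mitf or Pmel, with annotated starts only and without peaks at neighbouring gene ends, which were chosen after seeing the data. Without both long lists every difference was 0. The replicate block gave the same differences (0.108, 0, −0.667 and −0.336, exact sign-flip p = 1.0 for each). Of same-numbered libraries, those numbered 3 deviated together over genes (r = 0.466) and those numbered 1 and 2 did not (r = −0.469 and −0.515). The libraries numbered 1 and those numbered 2 each join a long and a short list, and both numbered 3 are short. List length and pairing can therefore not be told apart in these values. The numbers were not taken as pairs. Scaled to Bmal1 CKO 1, 28 of 50 Control 1 member peaks reached its lowest listed −log10 p-value, and in Bmal1 CKO 3, Control 2 and Control 3 at most 1 did. The whole lists were not scaled in this way.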
